A study of Homo sapiens with 14 samples.

Results

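The replication-dependent histone genes encode the H1, H2A, H2B, H3 and H4 proteins that package newly made DNA. They were taken here as every row of the RPKM table of all samples (reads scaled to transcript length and library size) whose symbol begins with HIST1H, HIST2H, HIST3H or HIST4H. This rule gave 69 of 21574 rows, and these rows name 73 genes because some rows join several genes. The symbols divide the rows into 6 for H1, 16 for H2A, 20 for H2B, 12 for H3 and 14 for H4, and 1 row joins an H2A with an H3 gene. Of the 69 rows, 3 were listed at 0 in all 10 columns, and each of these joins a pair of gene copies (HIST2H2AA3 with HIST2H2AA4, HIST2H3A with HIST2H3C and HIST2H4A with HIST2H4B). Since only uniquely aligned reads were counted, the values of near-identical histone copies are uncertain.

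Most histone messages of this kind carry no poly(A) tail. Their 3′ end is formed just after a short stem-loop that the stem-loop binding protein (SLBP) holds during processing, export and translation, and the messages accumulate while DNA is replicated and are degraded when replication stops. Some of the genes can also give a longer message that ends at an ordinary poly(A) signal.

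The study compared HepG2 cells, a line from a human liver carcinoma, that received siRNA against ADAR1 (siADAR1, here KD) with HepG2 cells that received scrambled siRNA (control), and the labels call both stably transfected and give no time. ADAR1, encoded by ADAR, is the enzyme that deaminates adenosines to inosines in double-stranded RNA. The 14 samples were 8 PARS-seq libraries (S1 nuclease or RNase V1, control or KD, 2 replicates each), 2 RNA-seq libraries (1 control, 1 KD) and 4 Ribo-seq libraries (2 control, 2 KD). PARS-seq reads RNA structure from the ends left by S1, which cuts single-stranded (SS) RNA, and by V1, which cuts double-stranded (DS) RNA, while Ribo-seq sequences the fragments that ribosomes protect. The labels describe poly-A selection in the same words for all samples, and how the ribosome-protected fragments were isolated is not given in the sources used here. The PARS-seq RPKM columns are the authors' means over both nucleases within a replicate. The paper calls the PARS-seq and Ribo-seq replicates biological, but nothing says that they came from separate cultures, so p-values measure only the spread between these samples.

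Depth and labels were examined before the histone genes. The steps between RPKM values placed the RNA-seq libraries at 40729941 and 30209865 reads and the Ribo-seq libraries at 995682 to 3322918, while the 8 PARS-seq libraries held 88565995 to 197781370 read starts on the transcripts listed in all of them. ADAR fell in PARS-seq from 40.7 and 46.8 RPKM in the controls to 15.1 and 15.1 in the KD, and in RNA-seq from 54.8 to 15.4. In Ribo-seq it was at 43.6 and 55.5 RPKM in the controls, at 8.73 in KD replicate 1 and at 44.03 in the library labelled Ribo-seq KD replicate 2, which lies within the control range. Directions drawn from the Ribo-seq KD samples below rest in part on this library. The hepatocyte markers ALB, AFP, APOA1, APOB, TTR, SERPINA1, TF and FGB did not exceed 0.0821 RPKM in any column, so the defining genes of the labelled liver line were at or near 0. Summed leukocyte and endothelial markers reached at most 0.275 and 0.172 RPKM, and COL1A1 ranged from 9.75 to 54.7.

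The stem-loop is shown because it marks the message end that distinguishes these genes. GENCODE annotation on GRCh37 (the hg19 build the authors aligned to) covered 70 of the 73 genes, and the search looked in the 100 bases after the stop codon, on the gene's strand, for 6 bases that begin with GG, a loop of 4 bases and the exact reverse complement of the first 6. It was found in 65 genes, 23 to 68 bases after the stop codon and so in the 3′ UTR. It was not found in HIST1H2AG and HIST1H2AK, which says only that these letters are not in this window. The other 3 genes, HIST1H2APS1, HIST2H2BA and HIST2H2BC, had no annotated stop codon. Their current symbols, H2AC2P, H2BP1 and H2BC20P, are those of pseudogenes. The same search found it in 107 of 19981 other coding genes (0.536%). The 65 genes held 8 distinct sequences, and the 4 most frequent follow with the stem in capitals and the loop in lower case.
HIST1H1C, chr6:26055972-26055987 (minus strand), shared by 39 genes: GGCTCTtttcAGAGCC
HIST1H4C, chr6:26104545-26104560 (plus strand), shared by 9 genes, all H4: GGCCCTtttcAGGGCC
HIST1H2BK, chr6:27114145-27114160 (minus strand), shared by 9 genes: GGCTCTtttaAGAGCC
HIST1H4I, chr6:27107433-27107448 (plus strand), shared by 4 genes, all H4: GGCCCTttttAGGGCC

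In 18 of the 65 genes the annotation holds a transcript that ends more than 100 bases beyond the stem-loop, at a genomic distance of 285 to 37155 bases, and in the other 47 the gene ends 1 to 11 bases after it. The poly(A) signal hexamers AATAAA and ATTAAA, searched on the gene's strand, were present in the last 40 bases of 11 of the 18 genes, of 1 of the 47, and of 69.9% of 20109 other coding genes. The 3 windows below are shown because HIST1H2AC, HIST1H2BD and HIST2H2BE had the highest RNA-seq levels among the members with a hexamer there. HIST3H2A, with a higher RNA-seq level than HIST2H2BE, has a long annotated transcript and no hexamer in this window. The hexamer stands in capitals.
HIST1H2AC, chr6:26139306-26139331 (plus strand): ggcatgaggtAATAAAaggtaatgca
HIST1H2BD, chr6:26171543-26171568 (plus strand): agttataattAATAAAatctgcggag
HIST2H2BE, chr1:149856017-149856042 (minus strand): tattgttattAATAAAgttaccaatt

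At the median, the histone genes were lowest in RNA-seq, higher in PARS-seq and highest in Ribo-seq. The median over the 69 rows was 0.554 and 0.566 RPKM in the RNA-seq libraries, 3.79 to 6.87 in the PARS-seq columns and 80.6 to 277 in the Ribo-seq libraries. A mean of at least 100 RPKM was reached by 0 members in RNA-seq, 1 in PARS-seq and 41 in Ribo-seq. Summed over the 69 rows, the histone genes took 0.0712% and 0.0946% of all RPKM in RNA-seq control and KD. They took 0.218% and 0.190% in the PARS-seq controls and 0.359% and 0.2503% in the KD. In Ribo-seq they took 8.90% and 3.04% in the controls, 10.1% in KD replicate 1 and 5.80% in the library labelled KD replicate 2. The Ribo-seq controls thus differed more from each other than the conditions did.

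**Figure D1:**
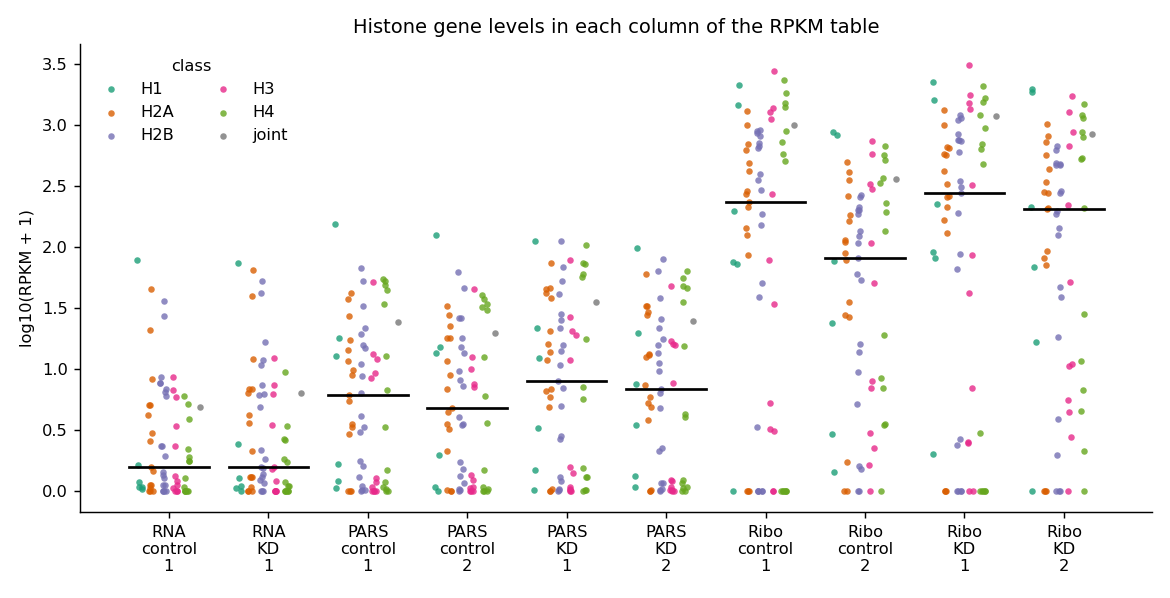
RPKM of the 69 histone rows in each of the 10 columns, by core class. The Ribo-seq columns, with medians from 80.6 to 277, lie above the PARS-seq and RNA-seq columns.

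RNA-seq held few histone genes above 10 RPKM. These were HIST1H1C with a mean of 74.8 RPKM, HIST1H2AC with 53.6, HIST1H2BK with 43.2, HIST1H2BD with 33.4, HIST3H2A with 29.1 and HIST2H2BE with 11.1. Of these 6, HIST1H2AC, HIST1H2BD, HIST3H2A and HIST2H2BE have a long annotated transcript, and HIST1H1C and HIST1H2BK do not. HIST1H1C and HIST1H2BK were nonetheless listed beforehand among the members known for polyadenylated messages. The 17 rows with such a transcript had a median of 5.04 RPKM in RNA-seq and 134 in Ribo-seq, while the 44 rows without one had 0.420 and 225. Among them, 2 of the 17 and 1 of the 44 join gene copies and were at 0 in every column. The order of the 2 Ribo-seq medians depends on these rows. The median ratio of Ribo-seq to RNA-seq was 53.4 over the 12 rows with a long transcript that had RNA-seq reads in both libraries, and 187 over the 32 rows without. These medians are a description, and the RefSeq length behind each RPKM value was not examined.

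Ribo-seq was set against RNA-seq with limma over all 10 columns on log2(RPKM + 1), a scale that understates differences of low genes, with condition as a term and Benjamini-Hochberg adjustment over 19608 genes. All 66 members with a value entered. Of these, 49 were higher in Ribo-seq at an adjusted p under 0.05, where 6.29% of all genes were, and 0 were lower, where 23.6% were (at an unadjusted p under 0.05, 1 member was lower). The median difference was 5.79 over the members and -0.03 over all genes. With the KD columns alone, which hold 1 RNA-seq library, the median over members was 5.91. In the control columns alone, 4 of 64 members were called higher, with 0.122% of genes, and the median over members was 5.61. With each column centred on its median, 56 of 66 members were higher and 0 lower, but 47% of all genes were then higher and 14.1% lower, and the median was 6.22 over members and 0.39 over all genes. On the linear scale, 49 members had RNA-seq reads in both libraries, and their median Ribo-seq to RNA-seq ratio was 145 in control and 129 in KD, against 0.714 and 0.739 over 14056 genes. A ratio above 10 was found in 43 and 44 of these members and in 1.64% and 1.74% of the genes. Each assay has its own protocol, and RNA-seq has 1 library per condition, so protocol and biology cannot be told apart in these contrasts.

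**Figure D2:**
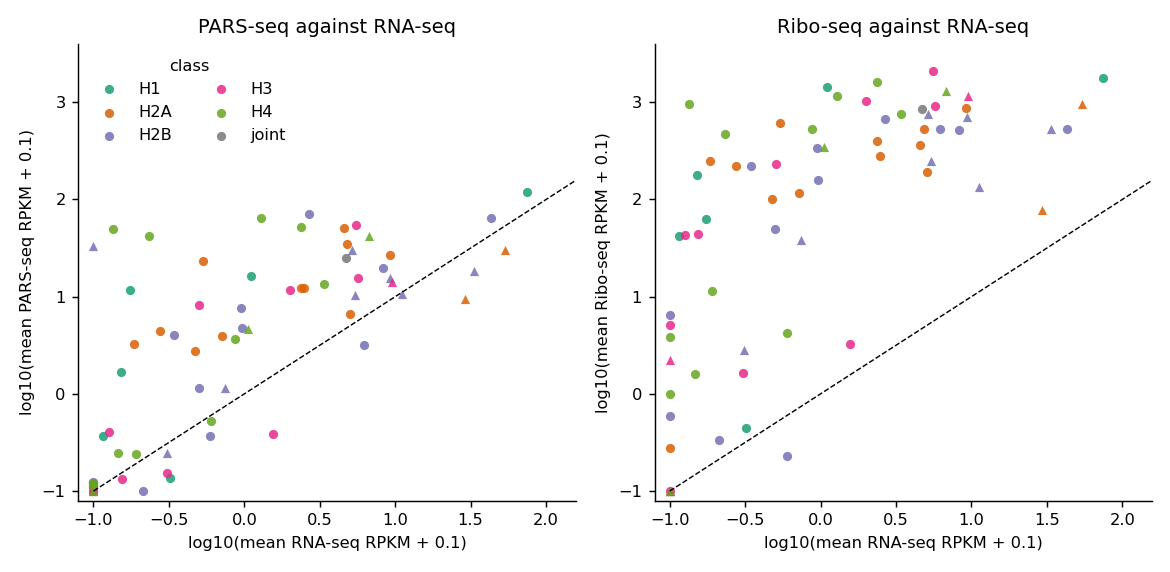
Mean Ribo-seq and PARS-seq RPKM of each histone row against its mean RNA-seq RPKM, both axes as log10 of the mean plus 0.1. Triangles have a long annotated transcript, circles do not, and the dashed line marks equality. Most rows lie above the line in Ribo-seq.

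Among the linker histones, which bind the DNA between nucleosomes, 5 of 6 rows were higher in Ribo-seq than in RNA-seq. HIST1H1E was at 0.626 and 1.39 RPKM in RNA-seq control and KD, and in Ribo-seq at 1464 and 874 in the controls, 1594 in KD replicate 1 and 1871 in the library labelled KD replicate 2. The assays did not overlap, and the log2 difference was 9.47 (SE 0.20, limma adjusted p = 1.78e-06). HIST1H1C, the highest member in RNA-seq, was at 76.9 and 72.6 RPKM there and at 2107, 830.5, 2255 and 1966 in Ribo-seq in the same order, with a log2 difference of 4.46 (SE 0.44, limma adjusted p = 0.000648). HIST1H1B was at 0.0622 and 0.0419 RPKM in RNA-seq and at 197, 75.4, 224 and 213 in Ribo-seq.

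Of the H2A rows, 12 of 15 were higher in Ribo-seq, with a median log2 difference of 5.98. HIST1H2AG was at 7.30 and 11.0 RPKM in RNA-seq and at 1000.3, 491, 1001 and 1024 in Ribo-seq. HIST1H2AC, with its long transcript, was at 43.9 and 63.3 RPKM in RNA-seq and at 1299, 407, 1327 and 810.3 in Ribo-seq, a log2 difference of 4.02 (SE 0.44, limma adjusted p = 0.000918). HIST3H2A did not pass the test: it was at 19.9 and 38.4 RPKM in RNA-seq and at 85.0, 26.7, 128 and 69.6 in Ribo-seq, so that the assays overlapped, and its limma adjusted p was 0.0706. Of the H2B rows, 15 of 20 were higher, with a median of 4.69. HIST1H2BK was at 35.2 and 51.2 RPKM in RNA-seq and at 674, 209, 754 and 464 in Ribo-seq, a log2 difference of 3.44 (SE 0.44, limma adjusted p = 0.00159). HIST1H2BF was at 1.31 and 3.85 RPKM in RNA-seq and at 904, 200.2, 1094 and 467 in Ribo-seq. HIST2H2BF was listed at 0 in all RNA-seq and Ribo-seq libraries and at 20.5 to 51.5 RPKM in PARS-seq.

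H3 and H4 form the tetramer at the core of the nucleosome. Of the H3 rows, 8 of 11 were higher in Ribo-seq than in RNA-seq, with a median log2 difference of 5.41, and HIST1H3B was the highest member of all in Ribo-seq control replicate 1, at 2773 RPKM. It was at 736 in control replicate 2, 3083 in KD replicate 1 and 1737 in the library labelled KD replicate 2, and at 5.67 and 5.19 in RNA-seq (log2 difference 8.15, SE 0.53, limma adjusted p = 0.000168). Of the H4 rows, 8 of 13 were higher, with the largest class median, 7.33. HIST1H4C was at 0.755 and 1.61 RPKM in RNA-seq and at 1512, 513, 1533 and 1129 in Ribo-seq (log2 difference 8.97, SE 0.43, limma adjusted p = 4.50e-05). Its RNA-seq values rest on 12 and 19 reads, which put the Ribo-seq to RNA-seq ratio at 1340 in control (767 to 2594) and 826 in KD (529 to 1371), with 95% Poisson intervals that cover only the counting error of RNA-seq. HIST1H4B had 1 RNA-seq read in control, a ratio of 12639 (2268 to 499220), and 0 in KD, where a floor of 3 reads puts the ratio at no less than 3713. HIST1H1C had 2294 and 1605 reads and ratios of 19.1 (18.3 to 19.9) and 29.1 (27.7 to 30.6).

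PARS-seq lay between the other assays. Against RNA-seq, 26 of 66 members were higher (limma, Benjamini-Hochberg, background 20% of genes) and 1 was lower (background 21%), with a median log2 difference of 1.01 over members and 0.00 over all genes. The lower member was HIST3H2A, at 7.82 and 5.79 RPKM in the PARS-seq controls, 12.8 and 11.4 in the KD and 19.9 and 38.4 in RNA-seq. HIST1H4C was at 53.5 and 39.6 RPKM in the PARS-seq controls and 103 and 62.6 in the KD. Ribo-seq exceeded PARS-seq in 50 of 66 members (background 6.23%) and was lower in 1 (background 24.7%), HIST2H2BF, with a median difference of 4.3996. In the control columns alone, 1 of 64 members was higher in PARS-seq than in RNA-seq (1.3% of genes, median over members 0.80), and 4 were higher in Ribo-seq than in PARS-seq (0.133% of genes, median 4.31). With the columns centred, 32 members were higher in PARS-seq than in RNA-seq (20.6% of genes), and 60 were higher in Ribo-seq than in PARS-seq (45.2% of genes, with a median of 4.73 over members and 0.31 over all genes).

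In PARS-seq, the histone genes were higher in KD than in control more often than genes in general. Of the 46 members with a mean of at least 1 RPKM, 21 rose at a limma Benjamini-Hochberg adjusted p under 0.05, where 8.06% of 11153 genes did, and 0 fell, where 7.43% did (at an unadjusted p under 0.05, 29 were higher and 1 lower). Among the 21 were HIST1H1B, HIST1H2BM and HIST3H2BB, whose control means were under 1 RPKM. These 3 passed the filter only through the KD columns, as did 210 genes in all, of which 50.5% were called higher, so their calls are no support. Of the other 43 members, 18 rose, where 7.25% of 10943 such genes did. The median log2 difference was 0.59 over the 46 members and 0.04 over all genes. KD and control did not overlap, with KD higher, in 35 members (background 33.3%) and, with KD lower, in 3 (background 27.1%). Same-numbered KD and control columns gave a median of 0.71 in replicate 1, positive in 43 of 46, and 0.46 in replicate 2, positive in 41. Over all genes both medians were 0.04, with 53.3% and 54.9% positive. Among the 43 members whose control and KD means both reached 1 RPKM, the median was 0.59, and KD was higher without overlap in 32 (32.6% of 10806 such genes) and lower in 3 (26.9%). The pairs were positive in 40 and 38 of these members, and in 5737 and 5916 of the 10806 genes. The calls depended on the filter and on KD replicate 1: with every gene tested, 0 members were called (1.16% of genes were called higher and 1.71% lower, and 29 members had an unadjusted p under 0.05), and without KD replicate 1, 11 were higher and 2 lower (7.93% and 8.1% of genes). In bulk samples, a changed share of cells in S phase and a changed amount of histone RNA per cell cannot be told apart.

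**Figure D3:**
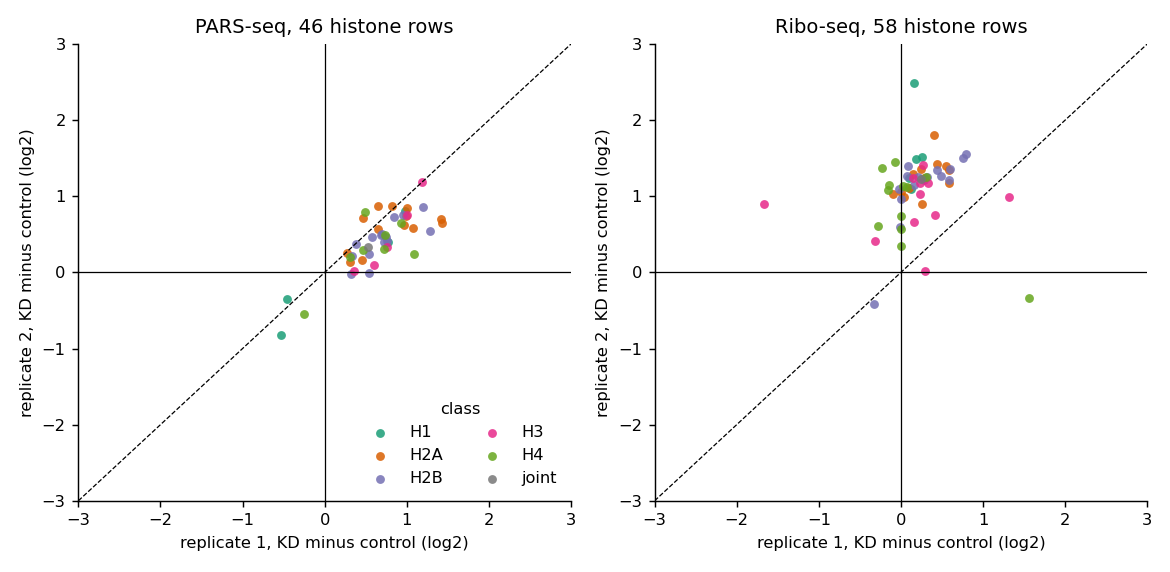
Log2 KD minus control of each histone row by same-numbered replicate, in PARS-seq and Ribo-seq, on log2(RPKM + 1). PARS-seq medians were 0.71 and 0.46, and Ribo-seq medians were 0.17 and 1.17, the second with the library labelled KD replicate 2.

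On log2(RPKM + 1), the largest rise among the called members was that of HIST1H3F, an H3 gene, at 7.36 and 6.08 RPKM in the controls and 18.0 and 15.1 in the KD, a log2 difference of 1.19 (SE 0.17, limma adjusted p = 0.00474). HIST1H2AG rose from 16.1 and 17.0 RPKM to 44.6 and 28.3, by 1.06 (SE 0.22, limma adjusted p = 0.0191). HIST1H2AH rose from 13.1 and 16.8 to 37.1 and 26.8, by 1.04 (SE 0.21, limma adjusted p = 0.0163). In none of these genes did the groups overlap. HIST1H2BI rose from 2.05 and 2.51 to 5.97 and 5.36 RPKM, by 1.03 (SE 0.15, limma adjusted p = 0.00461), and HIST1H2AJ from 1.93 and 1.12 to 4.86 and 2.80, by 0.92 (SE 0.23, limma adjusted p = 0.0334).

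By class, 8 of 13 H2A rows rose, with a median log2 difference of 0.80, and 9 of 15 H2B rows, with 0.59, where 8.06% of all genes rose. In H3 it was 2 of 5 rows (median 0.55), in H4 1 of 8 (0.56) and in H1 1 of 4 (0.09). The H1 row and 2 of the H2B rows are those that passed the filter only through the KD columns. These class counts were not tested against each other. The H4 row that rose was HIST1H4H, from 32.9 and 33.1 to 55.3 and 47.0 RPKM (log2 difference 0.61, SE 0.17, limma adjusted p = 0.0468). HIST1H4C missed the threshold with a log2 difference of 0.79 (limma adjusted p = 0.078).

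Linker histones lay on both sides of 0. HIST1H1B, which entered the test only through its KD values, was at 0.658 and 0.970 RPKM in the controls and 2.27 and 2.46 in the KD. HIST1H1E was at 11.7 and 14.0 RPKM in the controls and 20.8 and 18.8 in the KD, without overlap, and missed the threshold with a log2 difference of 0.59 (limma adjusted p = 0.0515). HIST1H1C was at 153 and 124 RPKM in the controls and at 110.3 and 96.5 in the KD, and HIST1H1A at 16.8 and 12.4 against 11.3 and 6.55. In both the KD values lay below the controls without overlap, while neither passed the test, with log2 differences of -0.41 (SE 0.19, limma adjusted p = 0.185) and -0.68 (SE 0.25, limma adjusted p = 0.103). The third member of this kind was HIST4H4, at 5.71 and 4.93 RPKM in the controls and 4.61 and 3.04 in the KD (limma adjusted p = 0.177). With the replicate number as a block these 3 members were called lower, where 22.7% of all genes were.

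Of the 12 tested members with a long annotated transcript, 6 rose and 0 fell (1, HIST4H4, had a negative difference), and of the 30 without one, 13 rose and 0 fell, where 8.06% of all genes rose and 7.43% fell. HIST3H2BB among the 6, and HIST1H1B and HIST1H2BM among the 13, passed the filter only through the KD columns. HIST1H2BD rose from 14.5 and 14.1 to 24.2 and 20.4 RPKM (log2 difference 0.60, limma adjusted p = 0.0456), and HIST2H2BE from 7.76 and 7.06 to 14.8 and 12.4 (0.79, limma adjusted p = 0.0181). HIST3H2A rose as well, by 0.76 (limma adjusted p = 0.0276). HIST1H2AC was at 25.8 and 21.2 RPKM in the controls and 41.1 and 31.9 in the KD and HIST1H2BC at 31.9 and 24.9 against 39.97 and 24.6, and neither passed the test.

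In RNA-seq, with 1 library per condition and no test, 23 of 29 members with a mean of at least 1 RPKM were higher in KD, where 48% of 10946 genes were. The median log2 ratio on log2(RPKM + 1) was 0.50 over these members, against -0.01 over all genes. A ratio past 2-fold on that scale was found upward in 2 members (background 0.813%), HIST1H2BF and HIST2H2BE, and downward in 1 (background 0.914%), HIST1H3J. HIST1H2BF rests on 23 and 50 reads, and HIST2H2BE was at 6.59 and 15.5 RPKM. HIST1H3J, at 2.36 RPKM in control and 0.554 in KD, passed the filter only through the control library, and HIST1H1E and HIST1H4C only through the KD library. Of the other 26 members, 21 were higher in KD (48.1% of 10631 such genes), with a median of 0.49. Of these 26, 2 were past 2-fold upward (0.677% of those genes) and 0 downward (0.79%).

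In Ribo-seq, 0 of 58 members passed the test in either direction (limma, Benjamini-Hochberg, background 0% both upward and downward among 10882 genes), and 0 members and 43 genes had an unadjusted p under 0.05. The median log2 difference was 0.68 over the members and 0.08 over all genes, but the 2 same-numbered pairs differed. Replicate 1 gave a median of 0.17, with 43 of 58 members positive, and replicate 2, whose library labelled KD has ADAR at the control level, gave 1.17, with 56 positive. Over all genes the same pairs gave medians of -0.02 and 0.16, with 47.1% and 61.6% positive. Control replicate 2 itself lay 1.60 below control replicate 1 at the median member, against 0.24 at the median gene. Without Ribo-seq control replicate 2 the median over members was -0.01, without control replicate 1 it was 1.42, and without the library labelled KD replicate 2 it was 0.90. KD and control did not overlap, with KD higher, in 9 of 58 members (background 10.7%), and with KD lower in 0 (background 7.12%). HIST3H3 among the 9, at 0 and 1.25 RPKM in the controls and 1.48 and 3.46 in the KD, passed the filter only through the KD libraries, and without it the count was 8 of 57 (10.4% of 10444 such genes). The difference between the KD effects in Ribo-seq and PARS-seq passed the interaction test in 0 of 45 members (limma, background 0% of 10339 genes), with 0 members at an unadjusted p under 0.05 and a median of 0.14 over members and 0.06 over all genes. Leaving out a replicate moved this member median between -0.61 and 1.02, so its direction is not settled.

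The PARS-seq read starts could be named for 7 members, HIST1H1C, HIST1H2AG, HIST1H2AM, HIST1H2BF, HIST1H3B, HIST1H4B and HIST1H4C. Their S1 read starts, in CPM (scaled to each library's total on the 4722 transcripts listed in every library), rose in 1 of 7 (limma, Benjamini-Hochberg, background 1.48% of 4721 transcripts) and fell in 0 (background 18.6%, with HIST1H1C below at an unadjusted p of 0.0167). The 1 was HIST1H2AG, at 7.81 and 7.18 CPM in the controls and 17.3 and 12.1 in the KD, a log2 difference of 0.95 (SE 0.37, limma adjusted p = 0.0475). This call was lost with the replicate number as a block, at the same difference (limma adjusted p = 0.0676). It was also lost without S1 KD replicate 1 or 2, fits that leave 1 KD library, with differences of 0.70 and 1.21. TMM scaling, and totals without the most covered transcript, kept it with a difference of 1.31 (limma adjusted p = 0.0011 and 0.00079). HIST1H1C was at 105 and 73.6 CPM in the S1 controls and 56.0 and 55.5 in the S1 KD (log2 difference -0.65, SE 0.27, limma adjusted p = 0.0706). With V1, 0 of 7 rose (background 2.05% of 16885 transcripts) and 0 fell (background 7.9%), and HIST1H1C was again the member with an unadjusted p under 0.05, at 45.7 and 33.5 CPM in the controls and 22.3 and 22.3 in the KD (limma adjusted p = 0.0953). The median log2 difference over the 7 was 0.33 with S1 and 0.13 with V1, against -0.36 and -0.14 over all transcripts. These medians rest on single libraries: the S1 median was -0.039 without KD replicate 1 and -0.022 without control replicate 2, and the V1 median was -0.071 and -0.068. A single transcript took 26.03% to 59.4% of each library's read starts on the 4722 transcripts listed in every library. Scaling by TMM instead moved the S1 median over all transcripts from -0.36 to 0.00. S1 control replicate 1 listed only these 4722 transcripts, and the other libraries listed 21052 to 22402. The V1 test scaled to totals on the transcripts listed in every V1 library, while the V1 CPM values above use the 4722.

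The position of the S1 cuts recurred between libraries. For S1, each transcript was divided into 10 equal intervals, and interval 6 of HIST1H1C held 44.4% to 50.1% of its read starts in the 4 libraries, interval 4 of HIST1H2AG held 62.8% to 71.9% and interval 6 of HIST1H4B held 64.0% to 73.5%. Across bases, the log2 read starts of S1 control replicates 1 and 2 correlated at r = 0.82 for HIST1H2AM to 0.91 for HIST1H1C, over 357 to 732 bases per transcript that are not independent. With V1 the same correlation ran from 0.61 for HIST1H4B to 0.83 for HIST1H4C, and interval 7 of HIST1H4B held 19.0% to 33.3% of its V1 read starts. The last base with a read start in any library lay 17 bases or more before the end of the transcript.

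The share of DS among classified bases, DS/(DS+SS), came from comparing V1 with S1 of the same replicate at each base (Fisher's exact test, threshold 0.05). KD lay below control without overlap in 6 of 7 members, where 67% of 4476 transcripts did, and above in 0 (background 2.79%). HIST1H1C was at 57.9% and 53.2% in the controls and 50.2% and 44.2% in the KD. HIST1H4C was at 54.9% and 54% in the controls and 50% and 46.8% in the KD. HIST1H3B was the member that overlapped, at 55.7% and 48.4% against 57.0% and 50.5%. The median change was -6.08 percentage points over the 7 members and -5.33 over all transcripts. In the controls the median share was 52.0% over the members and 60.9% over all transcripts. These shares depended on how bases were called. With library totals the control means of the 7 members ran from 47.8% (HIST1H2AM) to 56.4% (HIST1H2BF). With transcript totals they ran from 54.9% (HIST1H2AM) to 81.7% (HIST1H4B). The control median over all transcripts was not taken with transcript totals. When each base was tested against the totals of its own transcript, 2 of 7 members lay below control, where 50.7% of 4478 transcripts did, and 1 above, where 6.86% did. That member was HIST1H4B, at a mean of 81.7% in control and 86.6% in KD, although it was among the 6 that were lower with library totals. When libraries were thinned to equal depth, 3 members lay below, where 12.2% of 4435 transcripts did, and 1 above, where 14.8% did. That member was HIST1H3B, at 48.0% and 53.4%. The median change with transcript totals was -2.30 percentage points over the members and -4.475 over all transcripts, and after thinning it was -3.94 over the members and 0.28 over all transcripts. No test was run on these shares, for which the exact permutation test of 2 against 2 has 0.333 as its smallest p.

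Genes related by function were set beside the histone rows. Among replacement histones, whose messages are polyadenylated and made outside S phase too, 1 of 7 rose and 1 fell in PARS-seq KD, where 8.06% of all genes rose and 7.43% fell. H1F0 rose from 49.97 and 38.1 RPKM to 78.1 and 81.4 (log2 difference 0.85, limma adjusted p = 0.0230), and H2AFJ fell from 12.7 and 9.54 to 5.60 and 6.62 (-0.76, limma adjusted p = 0.0290). Of 14 genes of histone message processing and transcription, 0 were called. SLBP was at 55.2 and 44.2 RPKM in the controls and 78.4 and 59.2 in the KD (limma adjusted p = 0.172), and NPAT, a coactivator of histone genes, at 2.84 and 2.63 against 3.25 and 2.59. H2AFX was at 144 and 209 RPKM in RNA-seq control and KD, and at 27.5 and 52.7 against 45.7 and 75.8 in PARS-seq (limma adjusted p = 0.238).

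Of 18 DNA replication genes, 2 rose in PARS-seq KD and 0 fell, against the same 8.06% and 7.43% of all genes, with a median log2 difference of 0.19. RRM2, a subunit of ribonucleotide reductase, rose from 36.5 and 34.3 to 65.1 and 61.1 RPKM (0.82, limma adjusted p = 0.0168), and CCNE1, cyclin E1, from 3.32 and 2.88 to 5.05 and 5.53 (0.62, limma adjusted p = 0.0274). Of 48 ribosomal protein genes, whose short messages are polyadenylated, 0 rose and 2 fell, RPS27L by 1.07 (limma adjusted p = 0.0114) and RPL22L1 by 0.74 (limma adjusted p = 0.0371) on the log2 scale, and both are paralogs named after ribosomal proteins. Ribo-seq exceeded RNA-seq in 1 of 8 replacement histones, 3 of 14 processing genes, 0 of 18 replication genes and 5 of 50 ribosomal protein genes, where 6.29% of all genes were higher, with medians of -0.62, -0.17, -0.01 and -0.57 on the log2 scale, against 5.79 for the replication-dependent histones.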

How the data were processed

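The members and gene lists were chosen with earlier results of these data known. Groups came from the sample labels, and all 14 samples were assigned, with 0 columns of other samples. The authors aligned RNA-seq and Ribo-seq reads to hg19 with bowtie2 in local mode, kept unique alignments, counted them on RefSeq transcripts with coverageBed, which uses no strand as stated, and deposited RPKM. The PARS-seq RPKM columns are the authors' means of an S1 and a V1 library. For each PARS-seq library the authors deposited counts of read starts at each base of UCSC knownCanonical transcripts, with no normalization, and the study's supplementary tables paired 7 of these transcripts with histone symbols. The tables hold one list per base, so limma on log2 sums per transcript was used where the design had allowed for a count test.

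RPKM was compared as log2(RPKM + 1) with limma 3.58.1 (R 4.3.3), a mean trend and Benjamini-Hochberg adjustment over all genes tested, two-sided at 0.05. Comparisons of conditions used genes with a mean of at least 1 RPKM, and comparisons of assays every gene with a mean above 0. Read starts were scaled to library totals with 0.5 added, and transcripts needed 15 overall and at least 10, at median depth, in each of 2 libraries. DS and SS bases came from Fisher's exact test per base for transcripts whose read starts exceeded 256 in each library, where the chi-square test was used above 5000 read starts at a base. Depth was inferred from RPKM steps, whole to within 0.02 reads. The tests were tried on simulated data with known changes. The Ribo-seq test recovered them at none of the sizes tried, and the PARS-seq and V1 tests did not at the smallest. A missing call therefore does not show equal levels.

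Named members were the 3 highest of each class in Ribo-seq, the 5 highest in RNA-seq, the 7 with a named transcript, 5 known for polyadenylated messages and the 5 largest called changes. HIST1H1A, HIST2H2BF, HIST4H4, HIST1H3J, HIST3H3, HIST1H2BM, HIST3H2BB and the genes of the closing section were named after their values were seen. Alternatives covered pseudocount, filter, scaling, replicate block, thresholds and leaving out each replicate. Where an alternative left 1 column in a group, as in the contrasts of assays within a single condition, only the other groups supplied the spread. The counts over genes whose control and KD means both reached 1 RPKM were added after seeing the data. Intervals cover counting error only. Python 3.11.15, numpy 2.4.6, pandas 2.3.3, scipy 1.17.1, pysam 0.24.0 and matplotlib 3.10.9 were used.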

Additional observations from a re-analysis of the deposited data

Results flagged for a closer look

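HIST1H1A moved down in PARS-seq and up in Ribo-seq in both same-numbered pairs. The KD effect in Ribo-seq minus that in PARS-seq was 1.57 on the log2 scale, and the limma interaction test of this difference gave a Benjamini-Hochberg adjusted p of 1. HIST1H1C did the same, with a difference of 1.08 (limma adjusted p = 1), and neither passed the test. The second Ribo-seq pair uses the library labelled KD replicate 2, in which ADAR was at the control level. No group held enough samples for a search for outlying samples.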

How the results depend on the processing

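Of the counts and medians over the histone genes, 202 stayed near the reported value under an alternative and 51 moved. The DS share of HIST1H4B was lower in KD without overlap with library totals and higher without overlap with transcript totals, and 8 medians in 4 comparisons changed sign when a replicate was left out (Ribo-seq without its control 2, the interaction without PARS-seq KD 2, Ribo-seq control 2 or Ribo-seq KD 1, and S1 and V1 without KD 1 or control 2 of the same nuclease). For PARS-seq KD against control, testing every gene gave 0 members called higher and a median of 0.38, and centring the columns left 16 of the 21 calls (6.81% of genes higher and 8.15% lower). Leaving out a replicate gave 11 to 23 higher, 0 to 2 lower and medians of 0.45 to 0.75, with 5.22% to 11.9% of genes higher and 5.3% to 11% lower. In Ribo-seq the same range of medians was -0.0070 to 1.42, and for the interaction -0.61 to 1.02. PARS-seq against RNA-seq gave a median of 1.39 with a pseudocount of 0.1, 1 higher and 0 lower in control samples alone (1.3% and 2.07% of genes), 0 lower in KD samples alone (13.2%), and 22 to 35 higher and 0 to 3 lower without a replicate (16.9% to 22.9% and 17.7% to 23.9%). Ribo-seq against RNA-seq gave a median of 6.62 with a pseudocount of 0.1, 4 higher in control alone (0.122% of genes, median 5.61) and 1 lower in KD alone (11.3%), and 0 to 1 lower without a replicate (20.4% to 27.4%). Ribo-seq against PARS-seq gave 4 higher in control alone (0.133% of genes), and 1 to 2 lower without a replicate (19.3% to 26.6%). S1 read starts gave 2 higher and a median of 0.69 with TMM, and the same without the most covered transcript, while 6.48% and 6.52% of transcripts were then higher, against 1.48%, and the median over all transcripts was 0.00 under both. Without a replicate they gave 0 to 2 higher, 0 to 1 lower and medians of -0.039 to 0.65 (0.169% to 2.35% of transcripts higher and 4.89% to 36.5% lower). V1 gave medians of 0.32 with TMM, 0.40 without the most covered transcript, and -0.071 to 0.43 without a replicate. In RNA-seq a pseudocount of 0.1 gave 4 higher (1.7% of genes), and a 1.5-fold limit 8 higher and 2 lower (4.47% and 4.66%). The DS share gave 2 members lower with transcript totals and 3 after thinning, against 6, and 1 higher under each, against 0 (all transcripts: 50.7% and 12.2% lower, against 67%, and 6.86% and 14.8% higher, against 2.79%). The cause of these shifts was not tested.

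With the replicate number as a replicate block, PARS-seq gave 37 members higher and 3 lower, with 28.1% and 22.7% of all genes, S1 gave 0 higher, so that HIST1H2AG lost its call, and V1 0. The 3 lower in PARS-seq under this replicate block were HIST1H1A, HIST1H1C and HIST4H4 (limma adjusted p = 2.24e-08, 0.0138 and 0.000309). For Ribo-seq the replicate block, chosen after seeing the data, gave 1 of 58 higher (0.781% of genes) and 0 lower (0.533%). Same-numbered samples deviated together (r = 0.66 in PARS-seq, 0.81 in Ribo-seq, 0.47 with S1 and 0.38 with V1), but with 2 pairs and no label of a shared batch they share only a number. A low count of calls in Ribo-seq does not show that the levels were equal.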

Other observations

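The Ribo-seq replicates differed in which histone genes they listed. HIST1H2BB, HIST1H4F, HIST1H4G, HIST1H4J and HIST1H4K were at 0 in control and KD replicate 1 and above 0 in both replicate 2 libraries, while 0 members showed the converse. Over all rows, 930 (4.31%) were listed in this way and 128 in the converse way. HIST1H4G was at 18.0 RPKM in control replicate 2 and 27.2 in the library labelled KD replicate 2. HIST1H1D went the other way in level, at 71.1 and 79.7 RPKM in control and KD replicate 1 and at 1.94 and 15.5 in the replicate 2 libraries. HIST1H3C was at 76.6 and 85.3 RPKM in replicate 1 and at 5.90 and 9.96 in replicate 2. The RNA-seq values of HIST1H1D and HIST1H3C did not exceed 0.107 RPKM.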
